A study of Homo sapiens with 6 samples.

Results

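The genes described here are the fibroblast growth factors (FGFs), the platelet-derived growth factors (PDGFs) and the vascular endothelial growth factors (VEGFs), together with their receptors, measured by RNA-seq after a knockdown of NUF2. They were chosen by symbol from the deposited table of reads per gene, which gave 43 of 19973 genes. They comprise 22 FGF ligands and homologous factors, 5 FGF receptors, 4 PDGF ligands, 2 PDGF receptors, 5 VEGF ligands, and 5 genes that are the VEGF receptors FLT1, KDR and FLT4 and the co-receptors NRP1 and NRP2. All libraries came from OVCAR3, an established line of human ovarian cancer cells. In the control group the cells were transfected with a plasmid for the control hairpin RNA shNC, and in the knockdown group with a plasmid for shNUF2, a hairpin against NUF2, with 3 libraries per group. The labels name the shNC cells WT and the shNUF2 cells a NUF2 knockdown. The shNUF2 group rests on 1 hairpin in 1 cell line, and neither the labels nor the methods say whether the libraries of a group came from separate cultures, so p-values measure only the spread between these libraries, which may be technical.

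FGF, PDGF and VEGF ligands are secreted proteins that bring receptor tyrosine kinases together at the cell surface, and the activated receptors signal through the RAS-ERK, PI3K and phospholipase C pathways. In carcinomas, VEGFA is best known for its action on endothelial cells of nearby vessels, PDGF-BB for recruiting pericytes and fibroblasts, and FGFs for acting on both the tumor cells and the stroma. Sprouty proteins and some dual-specificity phosphatases are made when the pathway is active and dampen it again.

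Total counts ranged from 14115009 to 16995452 with shNC and from 13057534 to 15227460 with shNUF2, so that 3 reads equal 0.177 to 0.230 CPM (counts scaled to a common library size) by these totals, while CPM given elsewhere also carry the TMM factor of the library, 0.978 to 1.02. NUF2, a subunit of the NDC80 kinetochore complex, had 903, 1096 and 1092 reads in the shNC libraries against 281, 290 and 384 in the shNUF2 libraries. Its level was thus 35.1% of the control, a log2 fold change of -1.51 (SE 0.08, adjusted p = 2.17e-15). Among 11 markers of ovarian epithelium, 6 had a mean of at least 1 FPKM, the count scaled to gene length and library size. These were led by KRT7, KRT8 and KRT18. The summed level of all 11 was 247 to 281 FPKM with shNC and 299 to 327 FPKM with shNUF2. From shNC to shNUF2, the mean of KRT8 went from 49.5 to 99.2 FPKM and that of KRT18 from 35.3 to 50.4. KRT7 went from 169 to 142 FPKM and MUC16 from 1.12 to 0.651. CLDN4 went from 6.75 to 14.5 FPKM, EPCAM from 1.41 to 2.21 and PAX8 from 1.39 to 2.11. The epithelial markers CLDN3 and WFDC2 were at 0 and 1 read in total. KRT19 had 1 to 8 reads and CDH1 9 to 33 reads per library, so the list met the labelled cell type only in part. The summed level of 10 endothelial markers was 2.27 to 2.92 FPKM with shNC and 8.25 to 10.2 FPKM with shNUF2. ESAM made up most of it, with means of 2.19 and 7.94 FPKM, while EMCN and ROBO4 had 1 read each in total. Among the other low markers, CDH5 had 1 to 4 reads per shNC library and 15 to 27 per shNUF2 library, TEK 1 to 6 and 15 to 19, and TIE1 0 to 1 and 7 to 16, whereas PECAM1 had 24 to 49 and 28 to 43. The summed level of 8 leukocyte markers was 0.718 to 1.06 FPKM with shNC and 2.27 to 2.65 FPKM with shNUF2, and that of 10 fibroblast and mural markers was 28.5 to 29.4 and 25.1 to 26.5 FPKM. The latter sum came mostly from CSPG4 and COL1A1, while FAP had 5 to 6 reads per shNC library and 30 to 50 per shNUF2 library, DCN 40 to 67 and 104 to 130, and COL3A1 0 to 2 and 5 to 15. More genes had at least 1 read with shNUF2 (15435 to 15536) than with shNC (14582 to 14691), and the part of any of these differences in the results was not tested.

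With shNUF2, PDGFB, PDGFC, PDGFD, PGF, VEGFC and FGFR1 rose by more than 1 on the log2 scale, whereas PDGFA and FGFR3 fell by less than that. Reads were sufficient to test 19 of the 43 genes, which was decided by a filter on low counts across all genes. A gene was called a differentially expressed gene (DEG) when its log2 fold change was beyond 1 and its unadjusted p under 0.05 in edgeR's quasi-likelihood test; the study's methods give a fold change of 1 in either direction without a scale, which was read here as log2. Of the 19 tested genes, 6 (31.6%) were DEGs in the upward direction, whereas 9.41% of all 12874 genes tested were. The DEGs that were lower numbered 0 of 19, in edgeR as in DESeq2, against 4.16% of all genes tested, while 2 genes were lower at an unadjusted p under 0.05. At an adjusted p under 0.05 and any size of change, 11 genes (57.9%) were higher, against 33.9% of all genes, and 2 (10.5%) were lower, against 33.8% of all genes. The shNUF2 libraries lay wholly on one side of the shNC libraries for 14 of 19 genes (73.7%), close to the 70.6% among all genes tested. PDGFD and PGF passed the filter only through their shNUF2 libraries and so could hardly fail to differ, and of the other 17 genes, 4 were DEGs. By role, the DEGs were 5 secreted ligands, PDGFD and PGF among them, and 1 receptor. Lower RNA of a gene per cell and fewer cells that express it cannot be told apart in these bulk samples.

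**Figure D1:**
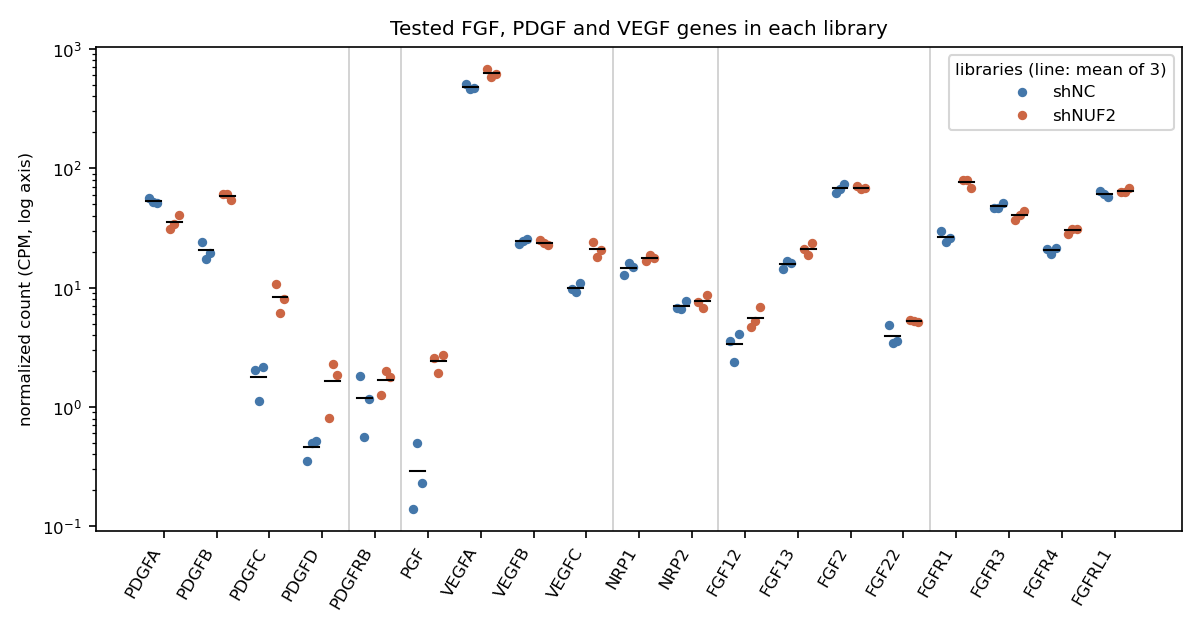
Normalized counts of the 19 tested genes in each library, in CPM on a log axis, with shNC in blue, shNUF2 in orange and a line at the mean of 3 libraries; grey lines separate PDGF ligands, PDGF receptor, VEGF ligands, neuropilins, FGFs and FGF receptors. The groups stand apart for PDGFB, PDGFC, VEGFC and FGFR1, and the points of FGF2, VEGFB and NRP2 overlap.

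**Figure D2:**
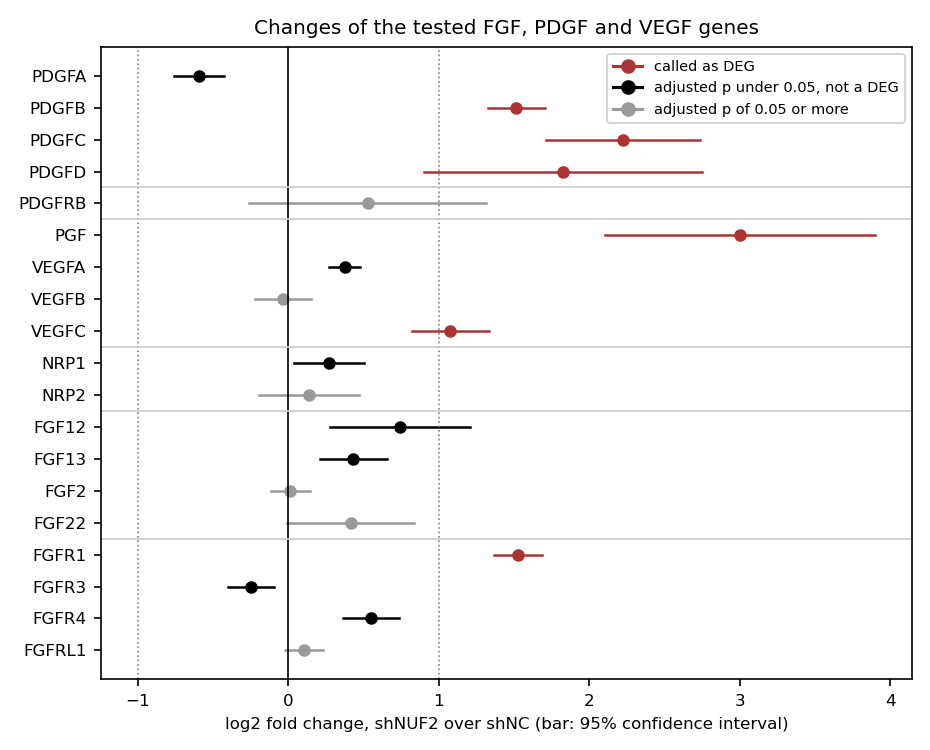
Log2 fold changes of the 19 tested genes (shNUF2 over shNC) with their 95% confidence intervals; dotted lines mark a log2 fold change of 1 in either direction. The 6 red points are the DEGs, from VEGFC at 1.08 to PGF at 3.00, and PDGFA lies at -0.59 and FGFR3 at -0.25.

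All 4 PDGF ligands were tested and all passed an adjusted p under 0.05, 3 of them higher and 1 lower with shNUF2, at a threshold that 33.9% and 33.8% of all genes tested passed in these directions. PDGFD, among the higher ones, passed the filter only through its shNUF2 libraries and could hardly be tested without being higher. PDGFB encodes the B chain, which binds both PDGF receptors as a homodimer, and lies on chromosome 22 from 39223359 to 39244982 on the minus strand of GRCh38. It had 346, 279 and 338 reads in the shNC libraries against 813, 794 and 808 in the shNUF2 libraries. Every shNUF2 library was above every shNC library, and the normalized count rose from 20.5 ± 3.51 to 58.4 ± 4.05 CPM (SD, n = 3). This was a 2.86-fold increase (log2 fold change 1.52, SE 0.09, adjusted p = 7.44e-14). PDGFA, the A chain, on chromosome 7 from 497258 to 520296, received 808, 830 and 876 reads in the shNC libraries against 420, 440 and 608 in the shNUF2 libraries. The groups did not overlap here either, and PDGFA fell by 0.59 on the log2 scale (SE 0.08, adjusted p = 3.85e-07), which is 1.51-fold lower and short of the DEG threshold. PDGFA and PDGFB thus changed in opposite directions.

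PDGFC and PDGFD encode the later-discovered C and D chains, which are secreted with a CUB domain that proteases must remove before they bind. PDGFC, on chromosome 4 from 156760454 to 156971799, received 29, 18 and 37 reads in the shNC libraries against 144, 80 and 121 in the shNUF2 libraries. The lowest shNUF2 library was well above the highest shNC library, and the increase was 4.67-fold (log2 fold change 2.22, SE 0.25, adjusted p = 1.22e-08). With limma on log2(FPKM + 1), which shrinks the changes of low genes, the log2 fold change was 0.85 and the DEG call was lost. PDGFD, on chromosome 11 from 103907189 to 104164379, received 5, 8 and 9 reads in the shNC libraries against 11, 30 and 28 in the shNUF2 libraries. It passed the filter only through its shNUF2 libraries, so a lack of overlap and a small p were nearly fixed in advance. Its groups did not overlap, but shNUF2 replicate 1 lay close to the shNC libraries. The log2 fold change of 1.82 had an SE of 0.45 (adjusted p = 0.000832). With limma on log2(FPKM + 1) the log2 fold change was 0.31 and the DEG call was lost. Of the receptors, PDGFRA was at 0 reads in every library, which allows up to 0.177 to 0.230 CPM per library by the total counts, counting error only. PDGFRB had 26, 9 and 20 reads in the shNC libraries against 17, 26 and 27 in the shNUF2 libraries. These ranges overlapped, and its log2 fold change of 0.53 had a 95% confidence interval from -0.26 to 1.31 (adjusted p = 0.227).

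Per kilobase, PDGFA was the most abundant PDGF ligand with shNC and PDGFB with shNUF2. PDGFA held 70.0% ± 2.57 (SD, n = 3) of the summed FPKM of the 4 ligands with shNC and 34.0% ± 4.42 with shNUF2, whereas PDGFB held 27.8% ± 2.36 and 58.8% ± 4.28. The ratio of PDGFB to PDGFA within a library, which does not depend on how libraries are scaled to each other, was 0.445, 0.350 and 0.401 with shNC and 2.01, 1.88 and 1.38 with shNUF2. The order of these ligands was thus the same in all libraries of a group and opposite between the groups. PDGFC rose from 1.60% to 5.57% of the sum and PDGFD from 0.595% to 1.56%. The sum itself went from 18.6 ± 1.55 to 24.5 ± 0.460 FPKM. These shares and ratios are descriptions, given with no test.

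**Figure D3:**
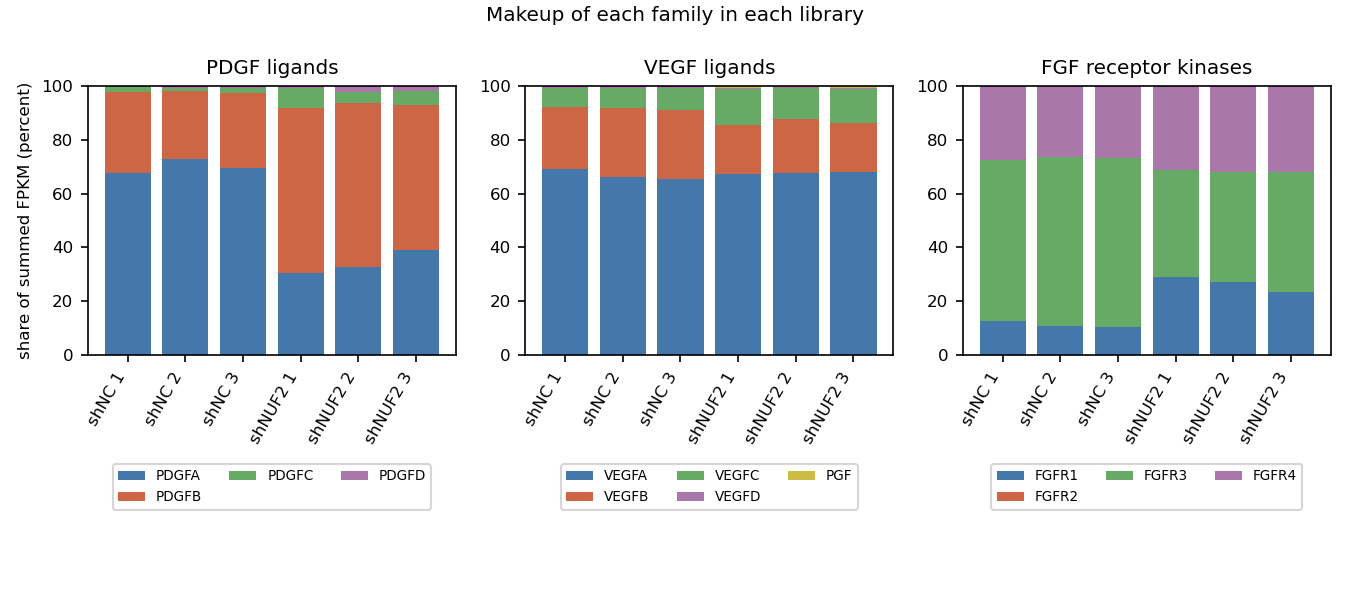
Share of each gene in the summed FPKM of its family, in percent, in each of the 6 libraries, for the PDGF ligands, the VEGF ligands and the FGF receptors with a kinase domain. PDGFA is the largest block of the PDGF bars with shNC and PDGFB with shNUF2, VEGFA holds about the same share of the VEGF bars in both groups, and FGFR1 holds a larger share of the FGF receptor bars with shNUF2.

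Of the 5 VEGF ligands, 4 were tested, of which PGF and VEGFC were DEGs, both higher, where 9.41% of all genes tested were DEGs in that direction. PGF passed the filter only through its shNUF2 libraries. VEGFA, the main angiogenic ligand of the family, which binds FLT1 and KDR, lies on chromosome 6 from 43770184 to 43786487. It had 7294, 7418 and 8161 reads in the shNC libraries against 9153, 7555 and 9352 in the shNUF2 libraries. Scaled to library size, the shNC libraries spanned 464 to 513 CPM and the shNUF2 libraries 581 to 679 CPM, with no overlap. The increase was 1.30-fold (log2 fold change 0.38, SE 0.05, adjusted p = 2.42e-07). VEGFA had the highest FPKM of all 43 genes, with means of 33.9 ± 1.64 and 42.9 ± 2.95 FPKM, which rank 1172 and 889 among the 19973 genes of the table.

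VEGFC, which acts mainly on lymphatic endothelium through FLT4, lies on chromosome 4 from 176683538 to 176792922. It had 138, 147 and 187 reads in the shNC libraries against 327, 233 and 312 in the shNUF2 libraries. The groups did not overlap, and the normalized count went from 9.93 ± 0.857 to 21.0 ± 3.17 CPM, a 2.11-fold increase (log2 fold change 1.08, SE 0.12, adjusted p = 2.07e-08). This lies just past the DEG threshold. The log2 fold change was 0.96 without shNUF2 replicate 1 and 0.87 with limma on log2(FPKM + 1), and both ended the DEG call. PGF, placental growth factor, which binds FLT1 but not KDR, lies on chromosome 14 from 74941834 to 74955626. It had 2, 8 and 4 reads in the shNC libraries against 35, 25 and 41 in the shNUF2 libraries. PGF passed the filter only through its shNUF2 libraries, so a lack of overlap and a small p were nearly fixed in advance. Every shNUF2 library was above every shNC library, and the increase was 8.02-fold (log2 fold change 3.00, SE 0.44, adjusted p = 9.96e-07), from a level near the limit of detection. Its size was uncertain: the log2 fold change was 3.61 without shNC replicate 2 and 1.77 and 0.42 with limma on log2(FPKM + 0.1) and log2(FPKM + 1), where the latter ended the DEG call.

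VEGFB, a ligand of FLT1 linked to fatty acid uptake in the heart, had 331, 393 and 436 reads in the shNC libraries against 337, 307 and 345 in the shNUF2 libraries. After scaling the groups overlapped, and the log2 fold change of -0.035 had a 95% confidence interval from -0.22 to 0.15 (adjusted p = 0.739). VEGFD, a ligand of KDR and FLT4, had 6 to 11 reads in each library and was not tested. Within the summed FPKM of the 5 ligands, VEGFA held 67.0% ± 1.95 with shNC and 67.6% ± 0.292 with shNUF2. VEGFC went from 7.58% ± 0.605 to 12.4% ± 0.903, and VEGFB from 24.8% ± 1.54 to 18.9% ± 1.06. The ratio of VEGFC to VEGFA was 0.104, 0.109 and 0.126 with shNC and 0.197, 0.170 and 0.184 with shNUF2, so these ranges did not overlap.

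Promoter sequence from RefSeq was at hand for 30 of the 43 genes, among them PDGFD, PGF and VEGFC of the 6 DEGs. Sequences of PGF and VEGFC are shown because these genes rose with shNUF2, each as the 250 bases before a RefSeq start on GRCh38.p14, 5′ to 3′ on the minus strand, on which both genes lie. The windows are chr14:74955765-74956014 for PGF and chr4:176792923-176793172 for VEGFC, and both lie wholly outside the gene positions of the deposited table given above. RefSeq starts can differ from those positions: another PGF window reaches into the deposited gene and that of PDGFD lies mostly within it, so these were searched for motifs but are not printed. Capitals mark matches to the SP1 motif GGGCGG on either strand.
PGF: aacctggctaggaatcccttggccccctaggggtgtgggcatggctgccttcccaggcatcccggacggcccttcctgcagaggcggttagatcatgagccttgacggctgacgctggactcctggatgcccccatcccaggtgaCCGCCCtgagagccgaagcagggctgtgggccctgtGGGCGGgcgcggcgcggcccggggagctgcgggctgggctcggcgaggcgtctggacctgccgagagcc
VEGFC: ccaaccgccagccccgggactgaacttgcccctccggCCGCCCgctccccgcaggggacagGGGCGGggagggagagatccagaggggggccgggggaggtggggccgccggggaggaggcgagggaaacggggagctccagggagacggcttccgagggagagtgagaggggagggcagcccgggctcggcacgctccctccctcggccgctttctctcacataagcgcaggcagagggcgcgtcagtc

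In the printed windows, the SP1 motif lay 105 and 69 bases before the start of PGF, and 213 and 189 bases before that of VEGFC. It was found in 4 of 4 windows of the 3 DEGs, of which those of PGF overlap, in 82.4% of the 17 windows of tested genes that were no DEGs, in 46.7% of the 30 windows of untested genes and in 42.6% of all 35116 windows. The GC content was 70.8% for PGF and 74.0% for VEGFC, against a median of 58.0% over all windows. Other motifs searched on both strands were the AP-1 site TGANTCA, the cyclic AMP response element TGACGTCA, the ATF4 composite site TGATGNAA, the hypoxia core ACGTG, the E-box CACGTG that holds the hypoxia core, and the TATA motif TATAAA. They were found in 0 of the 4 windows, while among all windows their shares were, in that order, 6.57%, 1.65%, 3.14%, 18.5%, 6.34% and 10.7%. A match or its absence describes the letters of these windows.

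Receptors for VEGF ligands were near the limit of detection, while the neuropilins were expressed. KDR and FLT1 had 1 read each over all libraries, both in shNUF2 libraries. FLT4, the receptor for VEGFC and VEGFD, had 0, 0 and 2 reads in the shNC libraries against 8, 4 and 0 in the shNUF2 libraries. These receptor counts were too low to test, and those of FLT4 overlapped between the groups. The endothelial marker sum given above was higher with shNUF2, as were the counts of ESAM, CDH5, TEK and TIE1 in it but not those of PECAM1. The part of such expression in the receptor counts was not tested. NRP1, a co-receptor for VEGFA and for class 3 semaphorins, had 182, 258 and 257 reads in the shNC libraries against 224, 244 and 267 in the shNUF2 libraries. Scaled to library size the groups just failed to overlap (12.8 to 16.1 and 16.6 to 18.8 CPM), with a log2 fold change of 0.27 (SE 0.11, adjusted p = 0.0354). This call was lost in 9 of 15 alternative analyses, where the adjusted p reached 0.177, for example 0.0529 with DESeq2. NRP2, the co-receptor associated with VEGFC, had 96, 105 and 132 reads in the shNC libraries against 103, 87 and 131 in the shNUF2 libraries. Its groups overlapped, and its log2 fold change of 0.14 had a 95% confidence interval from -0.20 to 0.47 (adjusted p = 0.464).

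Among the 22 FGF genes, FGF2, FGF22, FGF12 and FGF13 were tested and 0 of 4 were DEGs in edgeR or DESeq2. In edgeR, 9.41% of all genes tested were higher and 4.16% lower as DEGs. At an adjusted p under 0.05 in edgeR, FGF12 and FGF13 were higher, as were 33.9% of all genes tested. FGF2, a heparin-binding ligand of several FGF receptors, lies on chromosome 4 from 122826708 to 122898236 and had 889, 1064 and 1277 reads in the shNC libraries against 957, 864 and 1025 in the shNUF2 libraries. Scaled to library size it was at 67.8 ± 5.94 and 68.5 ± 2.29 CPM with overlapping groups, a log2 fold change of 0.014 with a 95% confidence interval from -0.12 to 0.14 (adjusted p = 0.857). FGF2 held 81.8% ± 4.28 of the summed FPKM of the secreted FGFs with shNC and 79.5% ± 2.10 with shNUF2. Of its 6775 exon bases, 804 are shared with NUDT6 on the opposite strand, which had a log2 fold change of -0.55 (SE 0.23, adjusted p = 0.0397). The library kit marks strand, but whether the counting used it is not given in the sources used here. FGF22, a ligand known for organising synapses, had 69, 55 and 61 reads in the shNC libraries against 72, 68 and 77 in the shNUF2 libraries. Its normalized counts did not overlap, with 3.44 to 4.85 CPM in the control and 5.12 to 5.34 CPM in the knockdown, and its log2 fold change of 0.41 had an adjusted p of 0.0758.

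FGF12 and FGF13 are FGF homologous factors, which stay inside the cell, bind voltage-gated sodium channels and do not activate FGF receptors. FGF12 had 51, 38 and 70 reads in the shNC libraries against 63, 68 and 103 in the shNUF2 libraries, and its normalized counts did not overlap. Its log2 fold change was 0.74 (SE 0.23, adjusted p = 0.00533), and without shNUF2 replicate 3 the adjusted p was 0.0587. FGF13 had 204, 269 and 275 reads in the shNC libraries against 283, 246 and 355 in the shNUF2 libraries. It was also higher with no overlap after scaling, by 0.43 on the log2 scale (SE 0.11, adjusted p = 0.00105).

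The other 18 FGF genes had at most 21 reads in any library and were not tested. FGF3, FGF4, FGF6, FGF20 and FGF23 were at 0 reads throughout, and FGF5, FGF7, FGF8, FGF9, FGF10, FGF11, FGF14, FGF16, FGF17 and FGF18 had 0 to 10 reads per library. FGF1, a ligand of all FGF receptors, had 0 reads in all 3 shNC libraries and 13, 17 and 0 reads with shNUF2, so that 1 shNUF2 library was at 0 like the controls. FGF19, an endocrine ligand that acts through FGFR4 with KLB, had 21, 11 and 10 reads in the shNC libraries against 0, 7 and 8 in the shNUF2 libraries. FGF21, another endocrine FGF, had 3, 6 and 3 reads in the shNC libraries against 1, 0 and 0 in the shNUF2 libraries. The shNUF2 libraries of FGF19 and FGF21 were the lower ones in each case, at counts that the filter excluded from the test.

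Of the 5 FGF receptors, FGFR1 rose, FGFR4 was higher by a smaller amount, FGFR3 was lower, FGFRL1 did not pass the test, and FGFR2 had 0 to 2 reads per library and was not tested. FGFR1, on chromosome 8 from 38400215 to 38468834, encodes the receptor kinase most often found in mesenchymal cells. It had 420, 386 and 445 reads in the shNC libraries against 1083, 1040 and 1038 in the shNUF2 libraries. The groups stood well apart, at 26.5 ± 2.75 and 76.5 ± 6.45 CPM, a 2.89-fold increase (log2 fold change 1.53, SE 0.08, adjusted p = 1.71e-15). Of the 13842 exon bases of FGFR1, 138 are shared with LETM2 on the opposite strand, which had 39 to 79 reads per library and a log2 fold change of 0.41 (adjusted p = 0.159).

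FGFR4, on chromosome 5 from 177086905 to 177098144, is the receptor through which FGF19 acts in the liver. It had 300, 308 and 370 reads in the shNC libraries against 383, 405 and 467 in the shNUF2 libraries. Its groups did not overlap and the increase was 1.46-fold (log2 fold change 0.55, SE 0.09, adjusted p = 5.65e-06). FGFR3, on chromosome 4 from 1793293 to 1808872, is the receptor kinase known from bone growth and urothelial cancer. It had 657, 741 and 882 reads in the shNC libraries against 497, 523 and 659 in the shNUF2 libraries, and after scaling every shNUF2 library was below every shNC library. It fell by 0.25 on the log2 scale (SE 0.07, adjusted p = 0.00436). FGFRL1, which lacks a kinase domain, had 911, 975 and 980 reads in the shNC libraries against 845, 829 and 1035 in the shNUF2 libraries. Its groups overlapped after scaling, with a log2 fold change of 0.10 and a 95% confidence interval from -0.023 to 0.23 (adjusted p = 0.138).

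Per kilobase, FGFR3 was the most abundant FGF receptor kinase in both groups, but its lead was smaller with shNUF2. It held 61.8% ± 1.75 of the summed FPKM of the 4 kinases with shNC and 41.9% ± 2.48 with shNUF2, whereas FGFR1 went from 11.3% ± 1.16 to 26.4% ± 2.82 and FGFR4 from 26.8% ± 0.642 to 31.7% ± 0.506. The ratio of FGFR1 to FGFR3 was 0.212, 0.172 and 0.167 with shNC and 0.721, 0.658 and 0.521 with shNUF2. FGFR1 stayed below FGFR3 in every library, and the ranges of the ratio did not overlap. Their summed level was 16.2 ± 0.766 FPKM with shNC and 19.6 ± 0.870 FPKM with shNUF2. In FPKM over all receptors described here, FGFRL1 was the most abundant, with means of 14.1 ± 0.803 and 14.8 ± 0.789.

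Other genes of these pathways were described in 4 lists, written with earlier results of these data known, so their shares are descriptions. Of 20 co-receptors, carriers and ligand-processing genes, 10 were tested, of which 3 were DEGs, all higher, beside 9.41% of all genes tested in that direction. At an adjusted p under 0.05, 3 were higher, 3 were lower and 4 did not pass, beside 33.9% and 33.8% of all genes tested that were higher and lower. The median log2 fold change was -0.014, beside -0.013 over all genes tested. SDC4, a syndecan whose heparan sulfate chains hold FGFs, had 2225 to 2412 reads with shNC and 5115 to 6145 reads with shNUF2 (log2 fold change 1.49, SE 0.05). PLAU, the urokinase that can cleave PDGF-D, had 119 to 217 and 298 to 361 reads (log2 fold change 1.24, SE 0.13). The third was PLAT, the tissue plasminogen activator that can cleave PDGF-C, with 9 to 14 and 28 to 41 reads (log2 fold change 1.78, SE 0.35), which was named after its values were seen. The genes that were lower were GPC1, HSPG2 and FURIN, with log2 fold changes of -0.86, -0.48 and -0.27, likewise named afterwards; the first and the second are heparan sulfate proteoglycans and FURIN is a protease that processes growth factor precursors.

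Of 26 adaptors and enzymes below the receptors, 25 were tested, with 3 DEGs, all higher, a share close to the 9.41% of all genes tested. At an adjusted p under 0.05, 12 were higher (33.9% of all genes), 4 were lower (33.8% of all genes) and 9 did not pass, with a median log2 fold change of 0.13. SHB, an adaptor of these receptors, had a log2 fold change of 1.27 (SE 0.09) and CBLB, a ubiquitin ligase that promotes receptor turnover, of 1.17 (SE 0.07). The third DEG, PIK3R1, the regulatory subunit of PI3K, had 9 to 12 reads with shNC and 25 to 42 reads with shNUF2 and was named after its values were seen.

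Of 16 feedback and response genes of the FGF-ERK pathway, all 16 were tested, and 8 were DEGs, all of them higher, where 9.41% of all genes tested were higher and 4.16% lower as DEGs. Since this list, like the others, was written with earlier results known, the share is a description. At an adjusted p under 0.05, 11 were higher (33.9% of all genes), 2 were lower (33.8% of all genes) and 3 did not pass, and the median log2 fold change was 1.04. SPRY4, a Sprouty inhibitor of the pathway, had 89 to 108 reads with shNC and 402 to 516 reads with shNUF2 (log2 fold change 2.45, SE 0.12). DUSP5 and DUSP6, phosphatases that inactivate ERK in the nucleus and the cytoplasm, had log2 fold changes of 2.37 (SE 0.05) and 2.33 (SE 0.07). FLRT3, a membrane protein that binds FGF receptors, had a log2 fold change of 1.70 (SE 0.23), and IL17RD, a membrane inhibitor of FGF signaling, of 1.67 (SE 0.29). The remaining DEGs were SPRY1, SPRY2 and DUSP4, which are negative regulators. EGR1 and ETV4, transcription factors that ERK activity induces, were the ones that were lower (log2 fold changes -0.60 and -0.29), and ETV1 and ETV5 had -0.16 and 0.19 without passing the test. SPRED1, SPRED2 and SPRED3, further inhibitors of the pathway, were higher by 0.31, 0.53 and 0.85 on the log2 scale without being DEGs. Apart from the 5 genes with log2 fold changes and errors above, the genes of this list were named after their values were seen. The RNA of these genes is no measure of ERK activity, which was not tested here. By Western blot, the study reported lower phosphorylated AKT and ERK with shNUF2 in OVCAR3 cells and xenografts.

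Of 21 other angiogenic factors and receptors, 14 were tested, with 5 DEGs, all higher, beside 9.41% of all genes tested; TEK among them passed the filter only through its shNUF2 libraries. At an adjusted p under 0.05, 8 were higher (33.9% of all genes), 3 were lower (33.8% of all genes) and 3 did not pass, with a median log2 fold change of 0.32. ADM, adrenomedullin, a vasodilator peptide, had 2670 to 3308 reads with shNC and 11428 to 13500 reads with shNUF2 (log2 fold change 2.24, SE 0.07). THBS1, a matrix protein that inhibits angiogenesis, had a log2 fold change of 2.10 (SE 0.10), ANGPTL4, an inhibitor of lipoprotein lipase, of 1.35 (SE 0.06), and EDN1, the vasoconstrictor endothelin-1, of 1.08 (SE 0.12). TEK, the angiopoietin receptor and one of the endothelial markers above, had 1 to 6 reads with shNC and 15 to 19 reads with shNUF2, and was named after its values were seen.

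**Figure D4:**
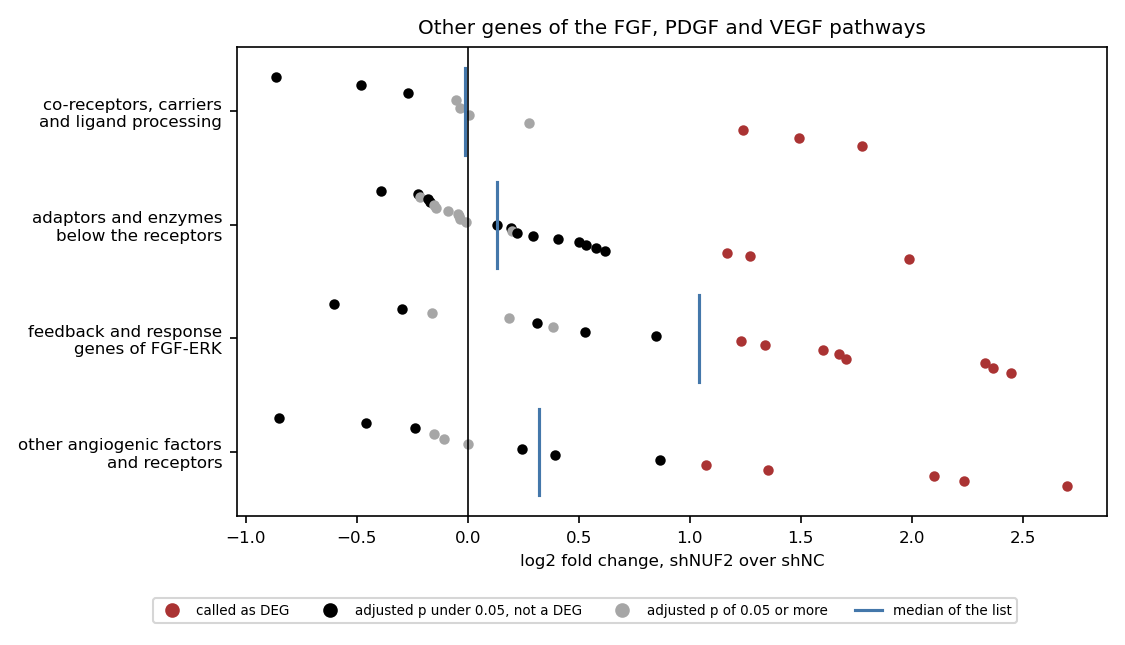
Log2 fold changes (shNUF2 over shNC) of the tested genes of 4 lists of other pathway genes, 1 point per gene, with a bar at the median of each list. The medians are -0.014 for co-receptors and ligand processing, 0.13 for adaptors and enzymes, 1.04 for feedback and response genes and 0.32 for other angiogenic factors.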

How the data were processed

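RNA-seq libraries of OVCAR3 cells with shNC or shNUF2 (3 each) were made with a strand-specific mRNA kit and sequenced on an Illumina NovaSeq. The submitters' processing notes name cutadapt, HISAT, HTSeq and GRCh38.p13, with no versions. The authors deposited raw read counts per gene for 19973 genes, and FPKM values, which equal the count over gene length and library total to within 2.71e-07. Columns of the authors' own comparisons were not used.

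The main test was that of edgeR 4.0.16 under R 4.3.3 (filterByExpr, TMM, quasi-likelihood test, all 6 libraries, no covariate), which kept 12874 genes. P-values were adjusted over these genes by the Benjamini-Hochberg method, and standard errors are the log2 fold change over the square root of F. CPM are TMM-scaled. The common biological coefficient of variation was 4.93%. Replicates differed beyond sampling noise and none was identical. Scripts were tested on simulated data. Alternatives were other scalings, filters and thresholds, DESeq2 1.42.0, limma 3.58.1 on log2 FPKM, the replicate number as a block and each library left out; the same fits for the pathway lists, and other scalings for the count of genes without overlap, were added after seeing the data. Groups of 3 cannot go below p = 0.1 when 1 value per library is compared by exact permutation.

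The genes and lists were chosen with earlier results of these data known. Named in full were DEGs and genes averaging 1 log2 CPM or more, and, in each list, at most 5 DEGs at that average with the largest change. Names in the lists outside this rule are marked. Also outside it, PDGFRB was given in full, and FGF1, FGF19, FGF21 and FLT4 with their counts per library. Overlapping exons were read from GENCODE release 29. Promoter windows were limited to the 250 bases before the RefSeq start, leaving out the 50 transcribed bases that the table also holds. FPKM were used to compare genes within libraries, for sums over families and marker lists, and in the limma alternatives. Intervals and limits cover counting error only where so stated.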

Additional observations from a re-analysis of the deposited data

How the results depend on the processing

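With limma on log2(FPKM + 1), which shrinks the changes of low genes, 2 genes were DEGs that were higher (FGFR1 and PDGFB), against 6 in edgeR, and over all genes the counts were 430 higher and 206 lower, against 1212 and 536. In the same setting, DEGs that were higher numbered 0 among adaptors and enzymes, 5 among feedback genes and 3 among other angiogenic factors. Without a filter on low counts, 9 genes were higher (FGF1, FGF9 and FLT4 added) and 2 were lower as DEGs (FGF19 and FGF21). Of all 16861 genes then tested, 1770 were higher and 634 lower. At least 1 CPM in every library left 4 that were higher, since PDGFD and PGF were then not tested, beside 756 higher and 397 lower of all 11711 genes. With a threshold of 0.58 on the log2 scale, 1 gene was lower (PDGFA) and FGF12 was added to the higher ones. Leaving out each library in turn gave 5 to 7 genes that were higher (VEGFC lost without shNUF2 replicate 1) and 0 to 1 that were lower (FGF19, without shNUF2 replicate 2). Over all genes, these fits gave 1198 to 1332 that were higher and 534 to 581 that were lower. FGF1 was a DEG without shNUF2 replicate 3 and without each of the shNC libraries.

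FGF2 changed sign, always far from any call: -0.023 with library totals only, -0.013 without a filter, -0.017 and -0.018 in the limma fits with pseudocounts of 1 and 0.1, and -0.044 to 0.080 with a library left out. Adaptors that were lower at an adjusted p under 0.05 numbered 7 with library totals only and 7 without a filter, against 4. The call of NRP1 was lost with library totals only, without a filter, with DESeq2, with both limma fits and without shNC replicate 1, shNC replicate 3, shNUF2 replicate 2 or shNUF2 replicate 3. FGF22 gained a call with both limma fits and without shNC replicate 1.

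The replicate numbers did not pair the libraries (correlations of deviations 0.040, 0.022 and -0.051). The fit with a replicate block gave 6 DEGs upward and 0 downward, and 11 and 2 genes at an adjusted p under 0.05, and it changed no call. Genes with under about 20 reads per library have wide intervals, and 24 of the 43 genes were left out by the filter, of which 6 had no reads at all.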
